A study of Arabidopsis thaliana with 6 samples.

Results

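The genes described here are 49 Arabidopsis loci that encode 20 proteins of the cytosolic 40S ribosomal subunit, RPSa and RPS2 to RPS20. They were taken by locus identifier, out of 33602 genes in the count files, and of 25005 genes in the authors' deposited table of the same comparison. All 49 have a row in both. The list was set with earlier results of these data known. Of the 20 proteins, 18 have at least 2 of these genes. RNA came from whole seedlings that were 1 day old, with 3 libraries of the wild-type accession Col-0 and 3 of vil1-1, a line mutated in VIL1. Both genotypes had 3 days of cold (4 °C, dark) before growth at 22 °C under 16 h of light and 8 h of dark. The comparison asks what the mutation alters just after germination.

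The 40S subunit binds the messenger RNA and decodes it, and its proteins assemble with 18S ribosomal RNA. In Arabidopsis most of these proteins are encoded by several near-identical genes, called copies here, so a cell can draw the same protein from different loci. Promoters of Arabidopsis ribosomal protein genes are known to carry short elements, the telo box and site II, the latter bound by TCP transcription factors. Germinating seedlings make new ribosomes as growth resumes. VIL1 encodes a PHD finger protein that acts with a Polycomb complex in gene silencing.

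Library totals were 46917 to 66546 gene counts, and levels are given as counts per 1000000 counts (CPM), so that 1 count was worth 15 to 21.3 CPM. A count of 0 allows up to 3 counts, or 45.1 to 63.9 CPM, for counting error alone. VIL1 itself had 0 counts in all 6 libraries, which leaves the genotype labels unchecked by the counts. In the authors' deposited table VIL1 had a log2 fold change of -0.91 (SE 0.21). Seedling markers fixed for the tissue (5 genes, none at 0) summed to 10657.7 to 11030 CPM in Col-0 and 13342.7 to 14801.8 CPM in vil1-1. Most of the higher sum was ICL, with means of 5744.7 and 8515.4 CPM, and EXPA2, with 237.2 and 637.3 CPM, while MLS stood at 2297.8 and 2172.6 CPM and PCK1 at 1713.2 and 1742.0 CPM. Mature embryo markers (4 genes, none at 0 over the 6 libraries together) summed to 30.1 to 81.9 and 94.8 to 149.2 CPM. No embryo marker had more than 4 counts in a library, and EM1, EM6 and CRU3 were at 0 in some. Means of EM1, EM6 and CRA1 were higher in vil1-1, while CRU3 stood at 13.6 and 7.1 CPM. The greening markers, 2 genes, summed to 2374.3 to 2414.7 and 2371.3 to 2792.2 CPM, and the endosperm marker EPR1 stood at 77.5 to 135.2 and 0 to 162.1 CPM. Both seed coat markers were at 0, and 2 root hair markers together reached at most 21.3 CPM. The part of the seedling and embryo markers in the results below was not tested. In whole seedlings, fewer cells of a type and less RNA per cell cannot be told apart.

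Copies of one protein differed in whether they carried these elements. The 250 bases before the annotated start of all 49 genes were read from the RefSeq TAIR10.1 genome and searched on both strands for the telo box (AAACCCTA) and for site II (TGGGCC or TGGGCT). Matches that overlap each other were each counted. The windows of 4 copies of RPS9 and RPS10, which touch no other annotated gene, are shown as examples, and of these 4 that of AT5G39850 holds neither motif, 5′ to 3′ on the gene's strand with motif letters in capitals.
AT5G15200 (RPS9, chr5:4936430-4936679, minus strand): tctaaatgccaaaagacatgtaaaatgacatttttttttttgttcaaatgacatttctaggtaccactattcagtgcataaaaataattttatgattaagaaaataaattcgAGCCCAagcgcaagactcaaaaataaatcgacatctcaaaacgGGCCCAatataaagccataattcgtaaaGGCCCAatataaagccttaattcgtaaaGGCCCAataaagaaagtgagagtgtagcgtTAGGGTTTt
AT5G39850 (RPS9, chr5:15949660-15949909, plus strand): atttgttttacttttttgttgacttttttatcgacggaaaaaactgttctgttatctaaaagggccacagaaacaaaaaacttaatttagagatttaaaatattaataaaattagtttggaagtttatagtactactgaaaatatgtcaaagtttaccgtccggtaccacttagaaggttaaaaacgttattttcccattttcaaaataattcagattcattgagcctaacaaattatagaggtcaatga
AT5G41520 (RPS10B, chr5:16610693-16610942, minus strand): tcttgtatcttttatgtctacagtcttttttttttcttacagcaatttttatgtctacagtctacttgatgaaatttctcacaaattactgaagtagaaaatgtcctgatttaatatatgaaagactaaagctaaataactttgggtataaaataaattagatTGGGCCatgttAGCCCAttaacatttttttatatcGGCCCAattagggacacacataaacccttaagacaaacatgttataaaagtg
AT4G25740 (RPS10, chr4:13108828-13109077, minus strand): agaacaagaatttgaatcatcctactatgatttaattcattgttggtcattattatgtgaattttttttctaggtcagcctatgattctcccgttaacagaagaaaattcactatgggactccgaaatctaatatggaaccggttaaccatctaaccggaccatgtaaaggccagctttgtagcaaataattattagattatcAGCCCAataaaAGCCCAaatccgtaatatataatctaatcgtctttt

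The window of the RPS9 gene AT5G15200 holds 4 site II matches and a telo box that ends 1 base short of the gene start, and that of AT5G39850 holds none. The window of RPS10B (AT5G41520) holds 3 site II matches, and that of the RPS10 gene AT4G25740 holds 2. RPS10B had 1027 counts over the 6 libraries and AT4G25740 had 50, at 3029.8 and 158.0 CPM per kb. Of the RPS18 genes AT1G34030 and RPS18C (AT4G09800), the first has 1 site II match and the second none, at 703.0 and 515.9 CPM per kb in the counts. RPS13A, the RPS14 gene AT3G11510 and PFL, each the copy with most counts of its protein, have none.

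Over the 49 windows, 30 (61.2%) held a site II match and 9 (18.4%) a telo box, with both in 6 (12.2%). Among all 27443 protein-coding genes the shares were 19.2%, 4.5% and 1.4%. The 128 genes of the large 60S subunit had site II in 70.3% and a telo box in 23.4%, and the 45 other 40S genes in 66.7% and 13.3%. The RPS20 gene AT3G45030 had 7 site II matches, the RPS20 genes AT3G47370 and AT5G62300 none, and both RPS16 genes of the 49 none. A match is a description of letters, and no match says only that they are not in this window.

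**Figure D1:**
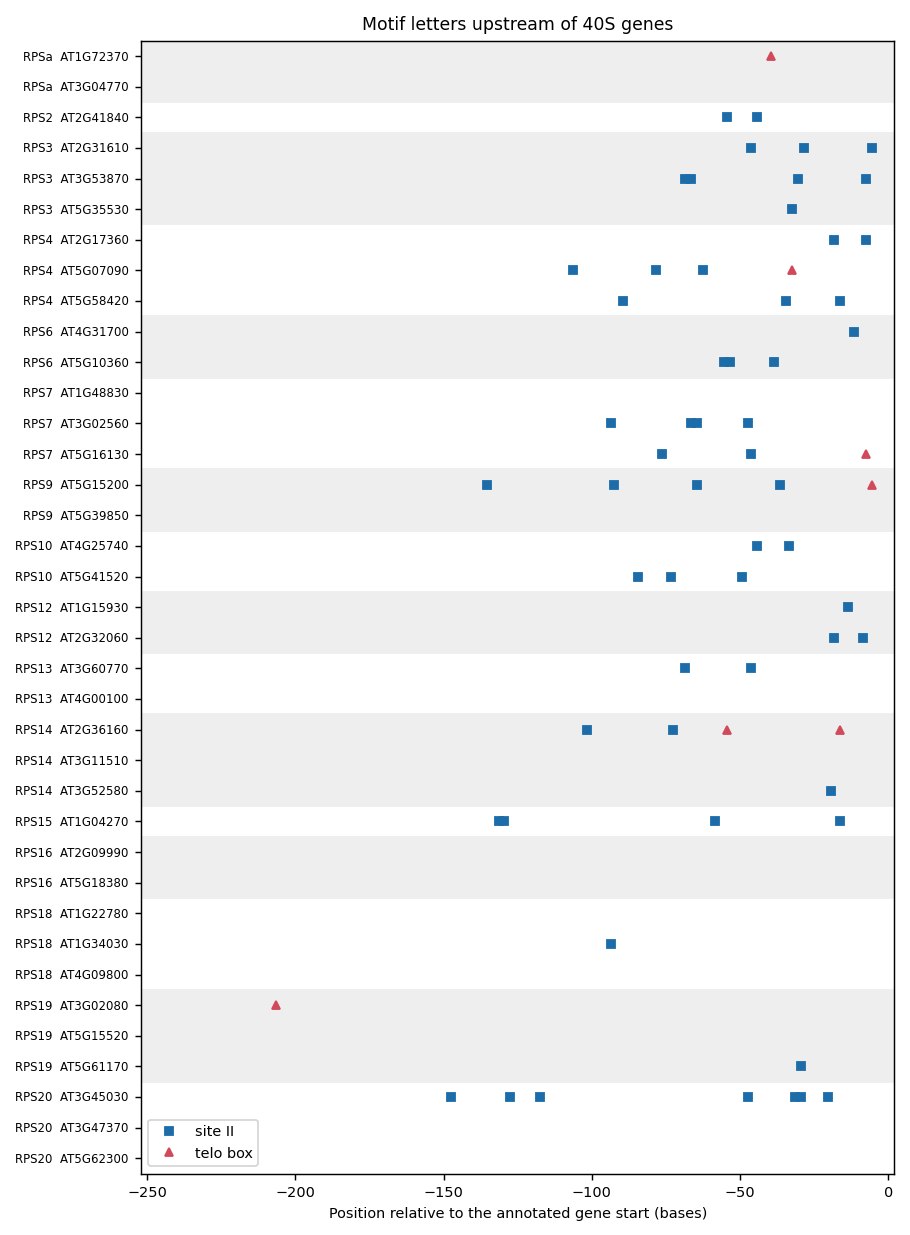
Position of each site II match (squares) and telo box match (triangles) in the 250 bases before the annotated start of 37 of the genes, in bases from the start, with shaded bands marking the copies of one protein. Site II was found in 23 of these 37 windows, and of the RPS9 copies 1 has matches and 1 has none.

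Levels of different genes are compared per kilobase of exon, as CPM per kb. In the authors' deposited table, which gives a single mean level per gene, the 49 genes ran from 8.2 to 2303.8 CPM per kb with a median of 722.9. The 30 genes with a site II match lay at 241.2 to 2303.8 CPM per kb there (median 786.3) and the 19 without one at 8.2 to 1893.5 (median 579.1). All 5 genes under 100 CPM per kb in the authors' deposited table were without site II. Among them are RPSAb, the RPS9 gene AT5G39850 and the RPS19 gene AT5G15520. In the counts RPSAb and AT5G39850 were also low, at 24.5 and 24.9 CPM per kb, but AT5G15520 stood at 579.9. The RPS12 gene AT1G15930, which has a site II match, stood at 25.0 CPM per kb in the counts. In the count files the ranges were 25.0 to 3029.8 CPM per kb with site II (median 404.2) and 2.8 to 3008.6 without (median 331.2), so the classes overlapped widely in both sources.

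RPS9, which in yeast ribosomes lies at the mRNA entry channel, drew nearly all its counts from 1 copy. AT5G15200 had 48, 60 and 32 counts in the Col-0 libraries and 46, 34 and 36 in those of vil1-1, against 2, 1 and 2, and 1, 0 and 3, for AT5G39850. The first copy held 96.6% of the counts (95% exact Clopper-Pearson interval 93.7 to 98.4%) and 96.5% of the level per kb in the authors' deposited table. For RPSa, the SA protein of the small subunit, the gene P40 (AT1G72370) had 20, 23 and 27 counts in the Col-0 libraries and 15, 27 and 33 in those of vil1-1, and RPSAb (AT3G04770) had 1, 2 and 1, and 2, 3 and 3. P40 held 92.4% of these counts (interval 87.0 to 96.0%) and 97.9% of the level per kb in the authors' deposited table. In RPS9 and RPSa both sources gave the same leading copy with over 90% of the total.

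**Figure D2:**
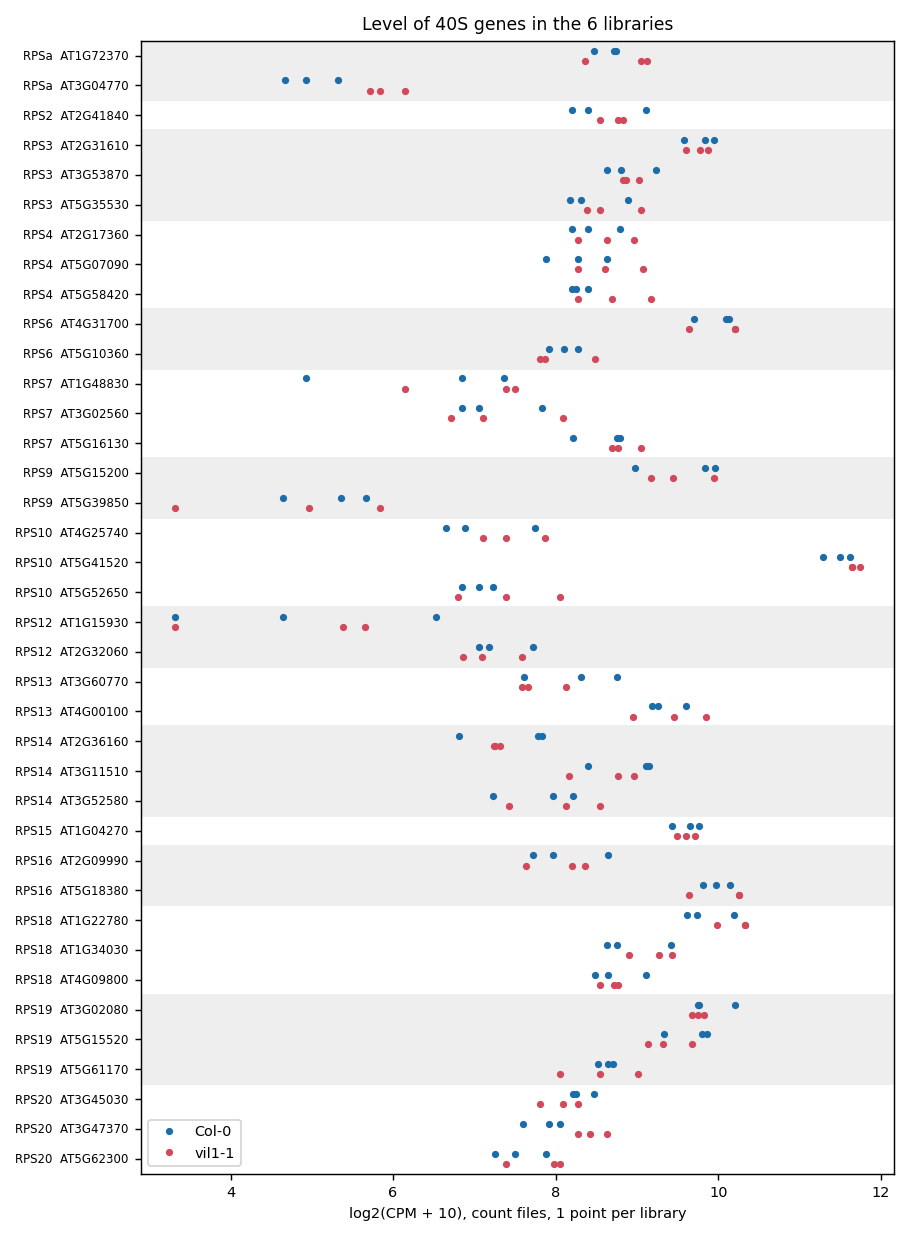
Level of 38 of the genes in each of the 6 libraries of the count files, as log2(CPM + 10), with copies of one protein in one band, blue for Col-0 and red for vil1-1. The points of the genotypes overlap for most genes, while copies of RPS9 and RPS10 stand far apart.

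In RPS10, RPS12 and RPS19 the sources differed widely in how much each copy was used. RPS10, a protein of the beak side of the head, was led by RPS10B (AT5G41520). Its counts were 153, 191 and 161 in Col-0 libraries and 150, 169 and 203 in those of vil1-1, against 49 and 50 counts over all 6 libraries for AT5G52650 and AT4G25740. RPS10B held 90.8% of the level per kb in the count files and 59.2% in the authors' deposited table. It led in both sources, with unequal margins.

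RPS12 holds the gene with the fewest counts relative to its level in the authors' deposited table. AT1G15930 had 4, 1 and 0 counts in the Col-0 libraries and 0, 2 and 2 in those of vil1-1, a mean of 25.0 CPM per kb, but stands at 465.4 CPM per kb in the authors' deposited table. AT2G32060 had 6, 9 and 13, and 5, 9 and 8 counts, a mean of 123.8 CPM per kb, against 410.7 there. Its exons overlap those of AT2G32050 by 133 bases on the same strand. The RPS12 total fell under 10 counts in a library, so its share was not tested.

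RPS19 differed in the opposite sense. AT5G15520 had 31, 61 and 57 counts in the Col-0 libraries and 26, 31 and 51 in those of vil1-1, 29.1% of the RPS19 level per kb, but only 3.2% in the authors' deposited table. AT5G61170 held 20.7% per kb in the counts and 56.5% there. AT3G02080 led in the counts, with 57, 57 and 55 counts in the Col-0 libraries and 38, 42 and 57 in those of vil1-1, and 50.3% of the level per kb. Of the 1271 exon bases of AT5G15520, 192 overlap exons of AT5G15530 on the opposite strand. No source used here gives the strand setting of the counting, so the gene of origin of reads in this overlap is uncertain.

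Over the 17 proteins with enough counts, the copy with most counts was also the leading copy of the authors' deposited table in 11 and a different one in 6 (10 and 7 per kb). Among the 6 were RPS3, RPS4, RPS19 and RPS20. The log2 ratio of the level in the counts to that in the authors' deposited table ran from -4.22 for AT1G15930 to 3.15 for AT5G15520, with a median of -1. Of all 49, 10 had a ratio above 0, RPS10B among them at 1.65. Across the 49 genes the levels had a Pearson r of 0.71 and a Spearman rho of 0.58, as a description over genes that are not independent. The reason for the differences between the sources was not tested.

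**Figure D3:**
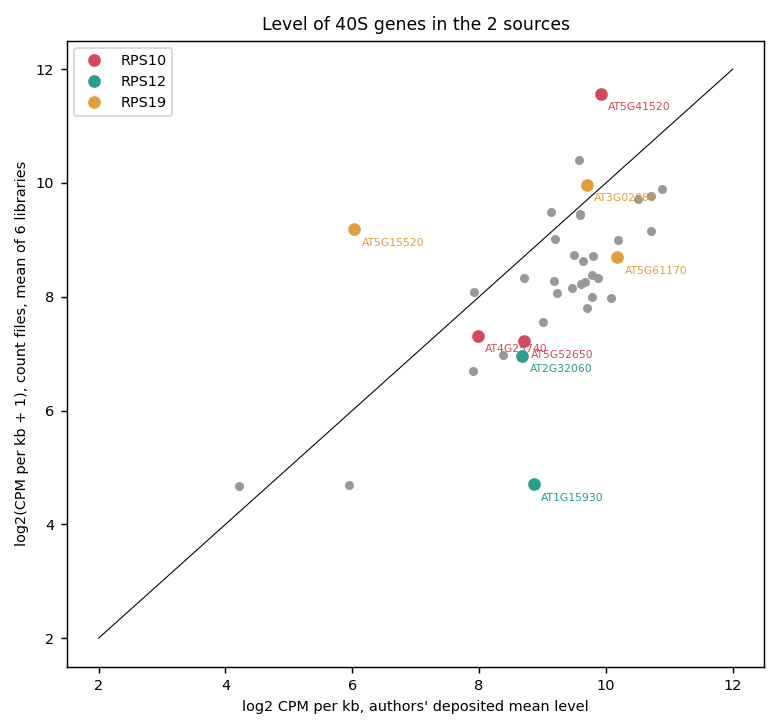
Level per kb of 38 of the genes by the authors' deposited table (horizontal, log2 CPM per kb) and in the count files (vertical, log2 of CPM per kb + 1, mean of 6 libraries), with the line of equal values. RPS10B (AT5G41520) and AT5G15520 lie above the line and AT1G15930 far below it.

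Other proteins drew on several copies. RPS3, at the mRNA entry channel, was led by AT2G31610, with 37, 60 and 63 counts in the Col-0 libraries and 36, 46 and 55 in those of vil1-1, 49% of the level per kb in the counts. In the authors' deposited table the RPS3 gene AT3G53870 led instead, with 42.5% of the level per kb against 32.9% for AT2G31610. The 3 RPS4 genes were near equal in the counts, at 252.1 to 322.3 CPM per kb, and AT2G17360 had most counts, 16, 19 and 28 in Col-0 libraries and 14, 19 and 31 in those of vil1-1. The authors' deposited table had the RPS4 gene AT5G07090 first, with 38.1% of the level per kb. RPS6 is the subunit protein that S6 kinase phosphorylates downstream of TOR. Its gene RPS6 (AT4G31700) had 53, 74 and 53 counts in the Col-0 libraries and 37, 58 and 74 in those of vil1-1, 79.7% of the level per kb in the counts, with the rest from EMB3010, a gene named for an embryo-defective mutant.

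RPS7 was led by AT5G16130, with 14, 28 and 28 counts in the Col-0 libraries and 19, 21 and 33 in those of vil1-1, 64.8% of the level per kb. RPS13A (AT4G00100) had 28, 51 and 39, and 43, 24 and 44 counts, and 70.9% of the RPS13 level per kb. RPS14, a platform protein, was led by AT3G11510 with 16, 36 and 36, and 13, 21 and 31 counts.

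PFL (AT1G22780), whose mutant has pointed first leaves, led RPS18 with 38, 56 and 75 counts in the Col-0 libraries and 47, 63 and 81 in those of vil1-1, 52.7% of the level per kb in the counts. In the authors' deposited table the RPS18 genes PFL and AT1G34030 were near equal, at 762.9 and 769.9 CPM per kb. The single listed genes of RPS2 and RPS15 also have further copies outside the 49. The RPS2 gene AT2G41840, of the entry channel, had 16, 19 and 35, and 17, 22 and 27 counts. The RPS15 gene AT1G04270 had 42, 53 and 44, and 39, 38 and 45 counts. In neither did the genotypes separate.

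RPS16 has copies too alike for the counts to separate with certainty. The coding sequences of the RPS16 genes are 98.2% identical. Of the exonic 31-base stretches, 23.7% in AT2G09990 and 21.4% in AT5G18380 occur more than once in the nuclear genome. AT5G18380 had 55, 59 and 64 counts in the Col-0 libraries and 37, 60 and 77 in those of vil1-1, and AT2G09990 had 19, 16 and 13, and 15, 14 and 12. The division of reads between these genes is uncertain. In the other proteins described here coding identity was 75.1 to 93.6%.

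Copy use was then compared between the genotypes by the share of the leading copy, the one with most counts over all 6 libraries. Differences in mean share, vil1-1 minus Col-0, ran from -11.8 to 7.1 percentage points over 17 proteins, with a median size of 1.8, and 8 were lower and 9 higher in vil1-1. In 2 of 17 proteins the genotypes did not overlap, RPSa and RPS20. Among 56 other ribosomal proteins treated in the same way, the share did not overlap in 7.14%. An exact permutation test of 3 against 3 libraries cannot go below p = 0.1, so no share could pass 0.05. Without Col-0 replicate 1, or without Col-0 replicate 3, 5 proteins did not overlap.

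In RPS20, a head protein, AT3G45030 held 46.7, 41.8 and 42.2% of the counts in the Col-0 libraries, against 27.8, 29.5 and 38.0% in those of vil1-1, or 43.6 ± 2.7% against 31.8 ± 5.5% (SD, n = 3 each, exact two-sided permutation p = 0.1). The counts behind it were 14, 23 and 19 in Col-0 libraries and 10, 13 and 19 in those of vil1-1, and for AT3G47370 they were 9, 17 and 15, and 14, 19 and 21. The authors' deposited table gave these RPS20 genes similar log2 fold changes, 0.12 and 0.13, and had a further copy, AT5G62300, first by level, with 39.1% of the total per kb. In RPSa the P40 share was 95.2, 92.0 and 96.4% in Col-0 and 88.2, 90.0 and 91.7% in vil1-1 (94.6 ± 2.3% against 90.0 ± 1.7%, SD, n = 3 each, exact two-sided permutation p = 0.1). That difference rests on RPSAb, with 4 counts over the Col-0 libraries and 8 over those of vil1-1. Exons of P40 overlap those of AT1G72360 by 124 bases on the opposite strand. Exons of RPSAb overlap those of AT3G04780 by 132 bases on the same strand.

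RPS10B held 90.5, 93.6 and 91.0% of RPS10 counts in the Col-0 libraries, against 89.3, 91.4 and 91.0% in those of vil1-1, with overlapping ranges. The mean share of RPS13A was 7.1 points higher in vil1-1, with overlapping ranges (exact two-sided permutation p = 0.3, n = 3 each). It was 3.7 points higher without vil1-1 replicate 1 and 11.0 without Col-0 replicate 3.

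**Figure D4:**
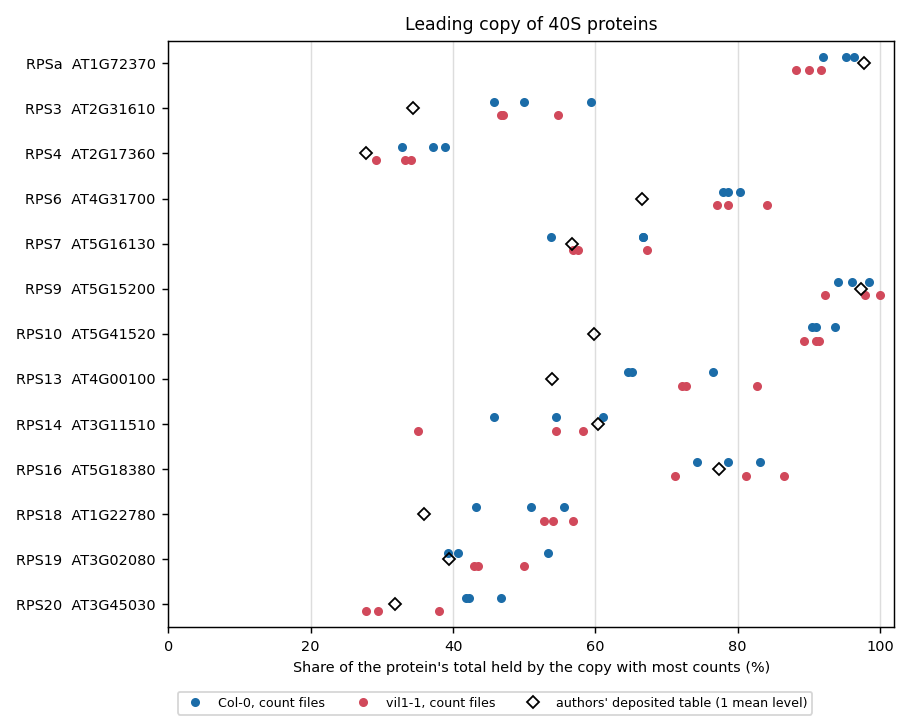
Share of each protein's counts held by its leading copy in each library (points, blue for Col-0 and red for vil1-1) and the share of that copy in the authors' deposited mean level (diamonds), in percent and not scaled by exon length, for 13 proteins. Only RPSa and RPS20 have genotype ranges that do not overlap, and for RPS10 the diamond (59.8%) lies far below the points (89.3 to 93.6%).

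No 40S gene passed the test for a difference between genotypes in the counts. Of the 49, 37 had enough counts to be tested and 12, with at most 57 counts over the 6 libraries, did not. Of these 37, 0 were called by edgeR's quasi-likelihood test (Benjamini-Hochberg adjusted p under 0.05 over 942 genes), where 3.72% of all tested genes were called. By unadjusted p under 0.05 there was 1 of 37 (2.7%), the RPS4 gene AT5G58420, against 12.5% of all tested genes. DESeq2 and limma-voom also called 0. Log2 fold changes of the 37 ran from -0.45 to 0.60 with standard errors of 0.13 to 0.37, and 22 were above 0. Their median was 0.05, beside 0 over all tested genes. Among the 79 tested 60S genes and 27 tested other 40S genes, 0 were called (2 in each by unadjusted p), with medians of 0.06 and 0.10.

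CPM ranges of the genotypes did not overlap for 2 of the 37, RPS10B and AT3G47370, against 17.1% of all tested genes. RPS10B stood at 3130.9, 2870.2 and 2494.0 CPM in Col-0 and 3197.1, 3425.1 and 3206.8 CPM in vil1-1, which is 0.24 on the log2 scale (SE 0.14, edgeR adjusted p = 0.478). AT3G47370 stood at 184.2, 255.5 and 232.4 CPM in Col-0 and 298.4, 385.1 and 331.7 CPM in vil1-1, which is 0.60 on the log2 scale (SE 0.32, edgeR adjusted p = 0.438). AT5G58420 had 16, 19 and 19 counts in the Col-0 libraries and 14, 20 and 36 in those of vil1-1, which is 0.56 on the log2 scale (SE 0.28, edgeR adjusted p = 0.393).

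Summed over the 49 genes, the counts made up 2.82, 2.80 and 2.76% of the Col-0 libraries and 2.83, 2.97 and 2.92% of the vil1-1 libraries. In CPM this was 27912.6 ± 315.7 in Col-0 and 29072.2 ± 698.2 in vil1-1 (SD, n = 3 each), a ratio of 1.04. The genotype ranges did not overlap, with 28198.4 CPM the highest in Col-0 and 28305.3 CPM the lowest in vil1-1. These values rest on 1378 and 1328 counts, at 20.5 and 21.3 CPM per count, so the gap is worth only a few counts. Among all single genes tested, 17.1% had ranges that did not overlap. With TMM-scaled library sizes the ratio was 1.07. No test was made of this sum.

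In the authors' deposited table the standard errors are smaller, and nearly the same for genes of similar level. There 4 of these 49 loci were called higher in vil1-1 and 0 lower at an adjusted p under 0.05. That adjustment was computed here over the 25005 genes of the deposited table. Its p-values go with the F values behind these standard errors, so the calls may not hold each gene's own spread between libraries. By unadjusted p under 0.05 there were 10 of 49 (20.4%), of which 9 were higher, against 17% of all its genes, with 7.75% higher. Of its 586 genes with a mean log2 CPM of at least 8, 200 passed by unadjusted p, 118 of them higher. Of all its genes 7.13% were called, and 3.56% were called higher. Among its genes with a mean log2 CPM of at least 8, 13.3% were called higher, more than the 8.16% of the 49. At a threshold of 0.01 none of the 4 was called. The low RPS9 copy AT5G39850 had a log2 fold change of 0.34 (SE 0.11, adjusted p = 0.0345) at 64.1 CPM in the authors' deposited table. There the RPS16 gene AT2G09990 had 0.23 (SE 0.07, adjusted p = 0.0205) and RPS10B 0.22 (SE 0.07, adjusted p = 0.0172). The RPS12 gene AT1G15930 had 0.21 (SE 0.07, adjusted p = 0.0443) in the same deposited table. As fold changes these are 1.27, 1.17, 1.16 and 1.16.

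The counts gave no separation for 3 of these 4. AT5G39850 and AT1G15930 had 9 counts each over the 6 libraries and were not tested, and AT2G09990 had -0.03 on the log2 scale (SE 0.34, edgeR adjusted p = 0.984). RPS10B was the exception, as given above. The lowest value among the 49 in the authors' deposited table was -0.25, and it did not pass the test.

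Most of the 49 lay slightly above 0. There were 42 of 49 genes (85.7%) with a positive log2 fold change in the authors' deposited table (median 0.09), beside 44.9% and -0.05 over all its genes. Among its 586 genes with a mean log2 CPM of at least 8, 61.3% were positive, with a median of 0.03. The 60S genes there had 81.5% positive and a median of 0.06, with 7 of 124 called higher and 1 lower. The other 40S genes had 75.6% positive and a median of 0.05, with 1 of 41 called higher and 1 lower. Of 11 genes of TOR signalling, nucleolar processing and cap binding, none was called higher and 1 lower by the authors' deposited table, namely S6K1, which encodes an S6 kinase (log2 fold change -0.40, SE 0.11, adjusted p = 0.00591).

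**Figure D5:**
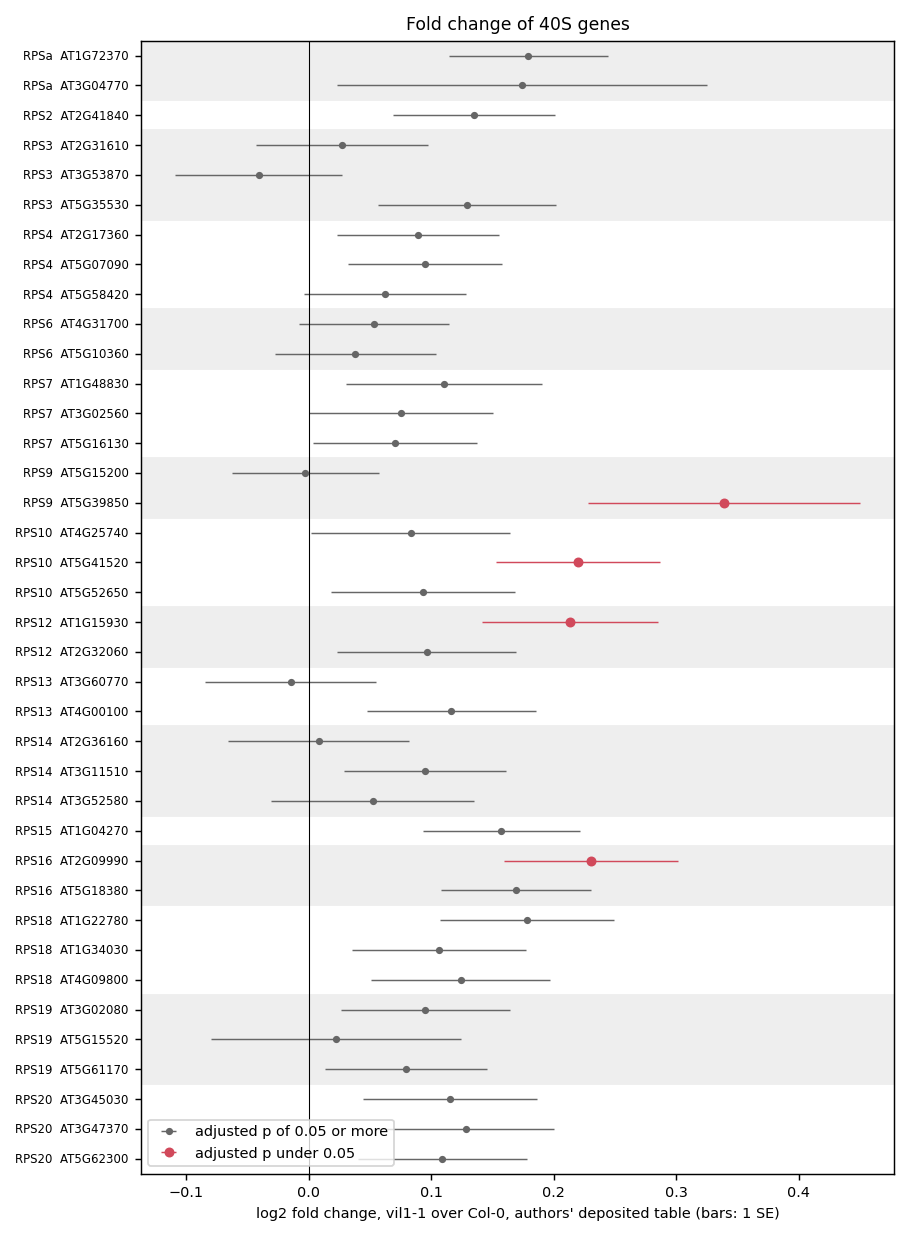
Log2 fold change (vil1-1 against Col-0) of 38 of the genes as the authors' deposited table gives it, with bars of 1 standard error computed from its fold changes and F values, and red points for the 4 with an adjusted p under 0.05. All 4 lie above 0, and 35 of the 38 points do.

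Within a protein the fold changes of the copies were close. For the 2 most abundant copies of each of 18 proteins, the difference in log2 fold change in the authors' deposited table ran from -0.34 to 0.21. The 95% interval of the difference, which takes the copies as independent, excluded 0 in 1 of 18 pairs. That pair was RPS9, where AT5G15200 had a log2 fold change of 0 and AT5G39850 of 0.34, a difference of -0.34 (interval -0.59 to -0.09). The intervals were not adjusted for the 18 pairs, and 1 of 18 at 95% can exclude 0 without any difference between copies. No share over other ribosomal pairs was computed. The count files did not repeat the higher value of AT5G39850 in vil1-1. Its 9 counts, too few to test, averaged 29.0 (Col-0) and 22.9 (vil1-1) as CPM. For the RPS6 genes the interval of the difference was -0.16 to 0.19 and for the RPS16 genes -0.24 to 0.12.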

How the data were processed

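Whole-seedling RNA was measured in 6 libraries, 3 per genotype, grouped by sample title; the series design calls them biological replicates. Bowtie2, featureCounts, edgeR and TAIR10 are named in the submitters' processing notes, without versions. The deposited files hold whole-number counts per gene, not normalized. The authors' deposited table holds log2 fold changes, mean log2 CPM, an F score and unadjusted p-values, and no source used here gives its libraries or log base. Read with base 2, its CPM sum to 1016258, so base 2 was used. Its standard errors were derived as absolute log2 fold change over root F. They were 0.066 for AT2G41840, AT2G17360 and AT3G11510 alike, at 1037, 990.5 and 1005 CPM. So they, intervals built on them and the p-values of that table may not hold each gene's own spread between libraries.

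Counts were tested with edgeR 4.0.16 (R 4.3.3; quasi-likelihood F test, TMM, default filter, genotype as the only term, Benjamini-Hochberg). On simulated data for this comparison (929 genes tested on average), 78.9% of 2-fold changes and 100% of 4-fold changes were called. CPM use library totals, without TMM. DESeq2 1.42.0 and limma 3.58.1 were alternatives. Shares used proteins with at least 10 counts in every library and scipy 1.17.1. Gene models and upstream bases are RefSeq TAIR10.1. The count and deposited files hold no coordinates. Intervals and floors cover counting error only.

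The members, lists and tests were chosen with earlier results of these data known. Named were, per protein, the member with most counts, members called in either source, the 3 highest and 3 lowest log2 fold changes of the authors' deposited table, both leading copies where shares did not overlap, and the 3 members with fewest counts. Other genes were named after their values were seen. Results of 4 of the proteins, and the upstream window of 1 other gene, are not reported here singly, and enter only ranges and counts over all members.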

Additional observations from a re-analysis of the deposited data

How the results depend on the processing

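The count of 40S genes called from the counts was 0 under all 13 alternatives. Over all genes, 35 were called, and 8 with DESeq2 and 21 without a filter on low counts. Leaving out 1 library gave 19 to 36, with 19 without vil1-1 replicate 2. Deviations of same-numbered libraries had r = 0.079, -0.033 and 0.019. At this depth counting error makes up most of the scatter between libraries, so this check could miss a pairing. With the replicate block, 35 genes and 0 members were called. At an adjusted p under 0.01, 0 of the 4 members called in the authors' deposited table remained; over genes with a mean log2 CPM of at least 0, 4 were called. The number of proteins with leading shares that did not overlap was 2, and 2 to 5 with 1 library left out. The ratio of summed levels was 1.042, 1.07 with TMM-scaled library sizes, and 1.031 to 1.055 with 1 library left out. The cause of these shifts was not tested.

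Of 221 recomputed log2 fold changes of 17 named members, 16 had the opposite sign to the value reported, in 8 members, and 0 were called. AT1G04270 changed sign to -0.02 with library totals without TMM, -0.03 without a filter and -0.05 with the filter of CPM above 1. With 1 library left out, log2 fold changes crossed 0 for AT1G04270 (-0.10 to 0.09), AT2G09990 (-0.23 to 0.25), AT2G31610 (-0.10 to 0.04), AT2G41840 (-0.09 to 0.45), AT3G02080 (-0.21 to 0.03), AT4G00100 (-0.12 to 0.31), AT4G31700 (-0.05 to 0.23) and AT5G15200 (-0.35 to 0.13).
None of the 104 recomputed share differences moved by more than the spread between libraries. With 1 library left out the differences still crossed 0 for RPS3 (-5.2 to 1.7 points), RPS6 (-1.1 to 2.4) and RPS7 (-6.1 to 0.3). They also did so for RPS9 (-1.1 to 2.8), RPS14 (-9.0 to 2.6), RPS16 (-2.6 to 5.1) and RPS19 (-1.5 to 5.4). At this depth 1 count is 15 to 21.3 CPM, so copies with few counts, such as RPSAb, AT5G39850 and AT1G15930, could not be compared between genotypes.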

Other observations

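Taken with listed copies outside the 49, RPS2 was led in the counts by AT1G59359, with 47.1, 59.3 and 41.0% of RPS2 counts in Col-0 libraries, against 61.1, 36.8 and 35.1% in those of vil1-1. RPS15 was led by AT1G04270, with 75.0, 73.6 and 68.8%, and 60.9, 66.7 and 72.6%. The genotype ranges overlapped for both proteins. With AT3G04230 included, the RPS16 share of AT5G18380 was 2.4 points higher in vil1-1, and 0.9 points without it, with overlapping ranges.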
